A study of Copadichromis virginalis x Mchenga conophoros with 6 samples.

Results

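G protein-coupled receptors, the G protein subunits they act through, and the enzymes and regulators next to them were followed in the brains of hybrid cichlids, allele by allele. Members were all genes whose symbol begins with a receptor, G protein, adenylyl cyclase, RGS or receptor kinase stem and that were listed in at least 1 pit digging and 1 isolated table. The rule found 61 genes, out of 10720 genes listed in at least 1 table of each of these paradigms and 13212 listed in any table. Of these, 39 were receptors in 7 classes, 9 were G protein subunits, 5 were adenylyl cyclases, 6 were RGS proteins or an RGS-binding protein and 2 were receptor kinases.

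A G protein-coupled receptor spans the membrane and, once its ligand binds, loads an alpha subunit with GTP and frees it from its beta-gamma pair. Alpha subunits then switch adenylyl cyclases or phospholipase C on or off, and beta-gamma pairs open potassium channels. RGS proteins end the signal by speeding GTP hydrolysis, and receptor kinases mark active receptors for arrestin. In the vertebrate brain these receptors carry most slow transmission, by monoamines, acetylcholine, endocannabinoids, lipids and peptides, and the adhesion class holds synapses and glia in contact.

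The animals were male F1 hybrids of Copadichromis virginalis, whose males dig pits, and Mchenga conophoros, whose males build castles. Every animal carried 1 haploid genome of each species, so both alleles were read in the same brain. Whole brains came from hybrids taken through a pit digging paradigm (2 libraries), a castle building paradigm (2 libraries) or social isolation (2 libraries), and the labels give neither age, brood nor the direction of the cross. The values are counts of reads assigned to the C. virginalis or to the M. conophoros allele. Each library held 2155680 to 3294397 such counts over 8829 to 11716 listed genes. Counts of the pair of castle building libraries differed from each other less than sampling noise would make them (chi-square per degree of freedom 0.495, against 27.3 and 20.4 for the other pairs). Their rounded mean was counted as 1 sample, so castle building has n = 1 and no replicate check. Each table lists a gene only from 6 counts on each allele, and the castle building tables only from a total of 21, so a missing gene is not a gene at 0. The labels do not say that replicates were separate broods, and the p-values rest on the spread among these few samples alone, which may be technical. In whole brain, fewer cells of a type and less RNA per cell cannot be told apart. Of 8 neuronal markers looked for, snap25, syt1, stmn2, elavl3, elavl4 and nefm were listed in all 6 tables. The markers nefl and rbfox3 were listed in none. The C. virginalis allele held 52.2 to 53.9% of all counts of a library, and the part of a shift towards that allele in single genes was not tested.

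Of the 61 members, 43 were listed in all 4 pit digging and isolated tables and 42 of these reached the mean total of 20 counts needed for a test. Castle building tables listed 42 members in both libraries and left out 19, whose mean totals elsewhere ran from 15.5 to 103. The fit that includes castle building tested the 34 members listed in all 6 tables. The 19 members not tested over pit digging and isolation had 12 to 106 counts per library and shares of 34.8 to 71.0%.

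The first comparison asked in which members the counts assigned to the 2 alleles were unequal, whatever the behaviour. Whether reads were assigned equally well to both alleles was not tested. The calls were one-sided, with 10 members higher on the C. virginalis allele, 0 higher on the M. conophoros allele and 32 that did not pass. They were the adhesion receptors adgrb1, adgrb3 and adgrl2, the cannabinoid receptor cnr1, the orphan receptors gprc5b and gpr85, the G protein subunits gnb1, gng4 and gng7, and the regulator rgs3. The 10 made up 23.8% of the 42 members tested, beside 9.72% of all 8254 genes tested that passed in either direction, 9.05% in this direction and 0.666% towards M. conophoros (edgeR, quasi-likelihood F test, p adjusted by Benjamini-Hochberg and under 0.05). DESeq2 called 7 of the 10. The median log2 ratio of C. virginalis over M. conophoros was 0.07 over the members and 0.05 over all genes. Members that passed had a median mean total of 425 counts and those that did not had 105, so depth differed between them.

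**Figure D1:**
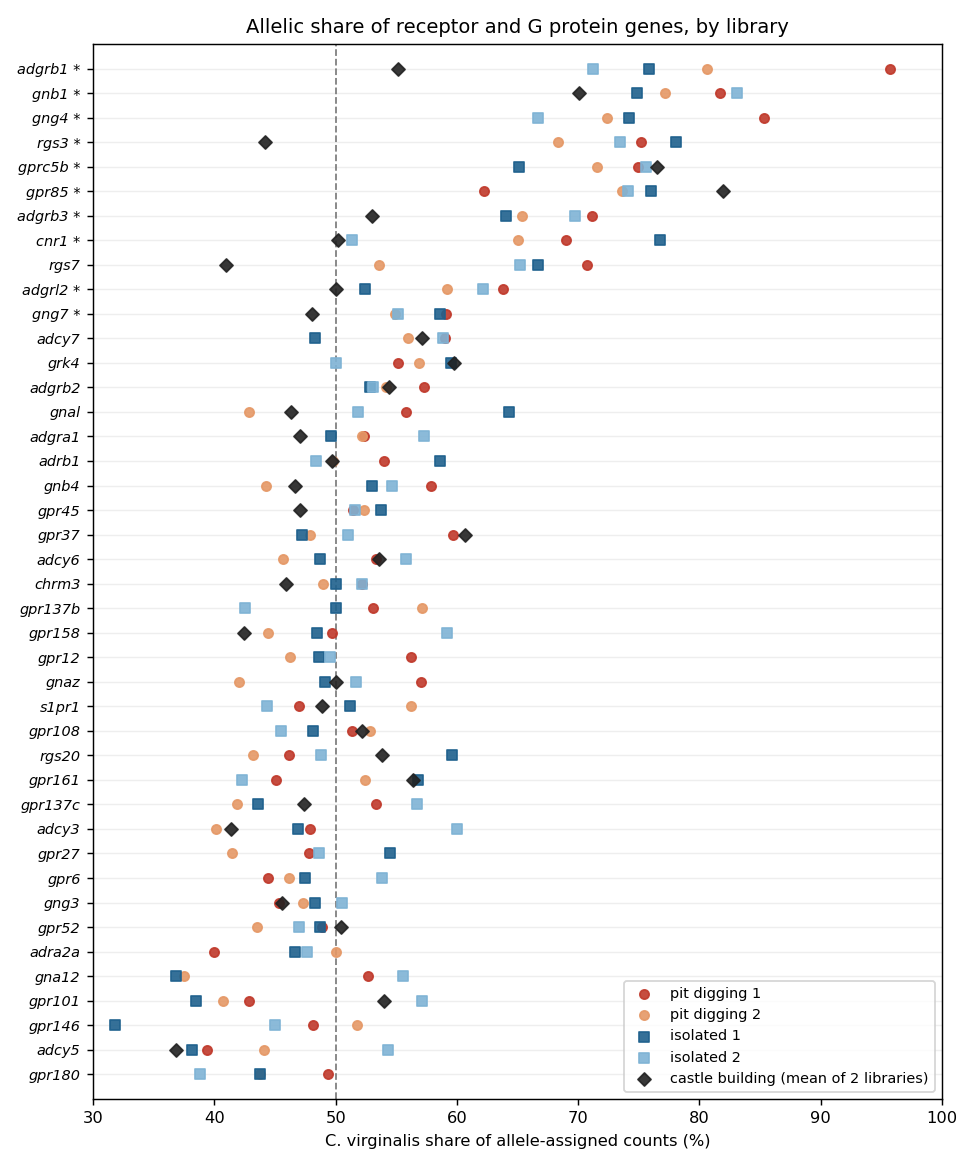
Share of allele-assigned counts on the C. virginalis allele (x axis, %) for the 42 members tested over pit digging and isolation, ordered by their mean (y axis). Circles are pit digging libraries, squares isolated libraries and diamonds the castle building sample where listed. The dashed line marks equal alleles and an asterisk an adjusted p under 0.05 over pit digging and isolation. The 10 members with an asterisk lie right of the line in all 4 libraries, and the castle diamonds of rgs3 and gng7 lie left of it.

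Among the 6 adhesion receptors, large proteins whose extracellular part binds neighbouring cells, 5 were tested and 3 passed. The receptor adgrb1, which in mammals sits at synapses and recognises dying cells, drew 95.7 and 80.6% of its counts from the C. virginalis copy in pit digging and 75.8 and 71.2% in isolation. Its 4 libraries all exceeded equality, with a mean of 80.8% ± 10.6 (SD, n = 4; log2 ratio 2.18 ± 0.25 SE, adjusted p = 0.0016). In pit digging replicate 1 the M. conophoros allele held 8 of the 186 counts. Its relative adgrb3, a receptor for C1q-like synaptic proteins in the mouse, had 71.2 and 65.4% in pit digging and 64.1 and 69.7% in isolation, a mean of 67.6% ± 3.40 (log2 ratio 1.07 ± 0.11, adjusted p = 0.000873). The groups overlapped. The latrophilin adgrl2, which binds teneurins across the synapse, had 63.8 and 59.2% in pit digging and 52.4 and 62.2% in isolation (mean 59.4% ± 5.001; log2 ratio 0.55 ± 0.12, adjusted p = 0.0253). It did not pass with DESeq2 or without pit digging replicate 1, pit digging replicate 2 or isolated replicate 2 (adjusted p up to 0.172). For adgrb2, the third member of the BAI subfamily, shares of 52.8 to 57.3% were close to those of all counts (log2 ratio 0.25 ± 0.08, adjusted p = 0.0976). The receptor adgra1 had shares of 49.6 to 57.3% and the remaining adhesion receptor, adgrl4, which is endothelial in mammals, was listed in 2 of these libraries with 51.7 and 42.9%.

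Of the 9 receptors for small transmitters and lipids, 5 were tested and 1 passed. The cannabinoid receptor cnr1, which quiets presynaptic terminals, had 69.0 and 65.0% C. virginalis counts in pit digging and 76.8 and 51.4% in isolation. The isolated libraries stood on either side of the pit digging ones, and their exact 95% intervals did not overlap. The mean was 65.5% ± 10.6 (SD, n = 4; log2 ratio 0.95 ± 0.23 SE, adjusted p = 0.0385, edgeR). It did not pass without pit digging replicate 1, pit digging replicate 2 or isolated replicate 1, or with a minimum mean total of 100 (adjusted p up to 0.185). The beta-adrenergic receptor adrb1 had shares of 48.4 to 58.6%, the alpha-adrenergic receptor adra2a 40 to 50% and the Gq-coupled muscarinic receptor chrm3 49.0 to 52.2%. The sphingosine phosphate receptor s1pr1 ran from 44.3 to 56.2%. None of these 4 passed, and each had libraries on both sides of equality or at it. The serotonin receptors htr7 (37.9 and 52.6%) and htr1f (57.1% in each) and the lysophospholipid receptors s1pr2 (50 and 47.1%) and lpar1 (50 and 53.8%) were each listed in 1 pit digging and 1 isolated library with at most 29 counts, and were not tested.

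The 24 receptors named gpr or gprc are mostly orphans, receptors without an accepted ligand, and 16 were tested. The class C orphan gprc5b had 75.0 and 71.6% in pit digging and 65.1 and 75.6% in isolation, on 872 to 1570 counts a library (mean 71.8% ± 4.80, SD, n = 4; log2 ratio 1.36 ± 0.12 SE, adjusted p = 0.000453, edgeR). The brain orphan gpr85 had 62.2 and 73.6% in pit digging and 76.0 and 74.1% in isolation (mean 71.5% ± 6.27; log2 ratio 1.31 ± 0.15, adjusted p = 0.00138). Both isolated values of gpr85 lay above both pit digging values, but the difference in share between these paradigms did not pass. How many of all genes had such groups was not counted. The remaining 14 did not pass, and their mean shares reached from 43.9% ± 4.32 for gpr180 to 52.3% ± 1.07 for gpr45. Among those with the most reads, gpr108 had shares of 45.5 to 52.9% and gpr37, a receptor of oligodendrocytes in mammals, 47.2 to 59.7%.

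Downstream of the receptors, 1 of 2 beta subunits and 2 of 3 gamma subunits tested passed towards C. virginalis, and none of 3 alpha subunits passed. The beta subunit gnb1 had 81.7 and 77.1% of its reads from the C. virginalis copy in pit digging and 74.9 and 83.1% in isolation, on 1227 to 1827 counts a library. Its mean was 79.2% ± 3.86 (SD, n = 4; log2 ratio 1.94 ± 0.13 SE, adjusted p = 9.18e-05, edgeR), the smallest adjusted p of the members tested. The other beta subunit, gnb4, had 57.8 and 44.2% in pit digging and 53.0 and 54.6% in isolation, and did not pass. The gamma subunit gng4 had 85.4 and 72.4%, then 74.2 and 66.7%, on 27 to 41 counts a library. Of these, 6 to 9 were M. conophoros counts, near the 6 needed for a listing. Its mean was 74.7% ± 7.83 (log2 ratio 1.62 ± 0.24, adjusted p = 0.00497). The call of gng4 did not hold without isolated replicate 1 or without isolated replicate 2 (adjusted p up to 0.0843). DESeq2 gave gng4 no adjusted p and so did not call it. The gamma subunit gng7, which in mammals assembles with the olfactory-type alpha subunit in the striatum, had 59.1 and 54.9%, then 58.6 and 55.1% (mean 56.9% ± 2.24; log2 ratio 0.41 ± 0.08, adjusted p = 0.0187). It did not pass with DESeq2 or without pit digging replicate 1, isolated replicate 1 or isolated replicate 2 (adjusted p up to 0.309). The neuronal gamma subunit gng3 had 45.3 to 50.5%, and gng5, listed in 3 libraries, had 52.4 to 66.7%. The alpha subunits gnaz, of the inhibitory family, gna12 and gnal, the olfactory-type subunit, had shares of 42.0 to 57.0, 36.8 to 55.6 and 42.9 to 64.3%.

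The enzymes and regulators held 1 member that passed. No adenylyl cyclase, the enzymes that make cyclic AMP, passed among 4 tested. Mean shares were 50.9% ± 4.54 for adcy6, 55.5% ± 5.04 for adcy7, 48.7% ± 8.27 for adcy3 and 43.99% ± 7.37 for adcy5 (SD, n = 4), with libraries on both sides of equality for each. The remaining cyclase, the calcium-stimulated adcy8, was listed in 3 libraries, with 71.0 and 43.8% in pit digging and 42.9% in isolation. The RGS protein rgs3, which acts on Gi and Gq alpha subunits, had 75.2 and 68.3% in pit digging and 78.0 and 73.5% in isolation (mean 73.8% ± 4.10, SD, n = 4; log2 ratio 1.51 ± 0.12 SE, adjusted p = 0.000212, edgeR). For rgs7, an RGS protein of neurons, 70.7, 53.6, 66.7 and 65.2% came from 18 to 58 counts a library, and the test did not pass (log2 ratio 0.92 ± 0.25, adjusted p = 0.0619). It did pass without pit digging replicate 2. The regulator rgs20 had 43.2 to 59.6%, rgs12 54.2 to 69.2% in 3 libraries and the RGS-binding protein rgs9bp 47.1 to 55.7% in 3. The receptor kinases grk4 and grk6 had 50 to 59.5% and 45.1 to 57.9%.

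The calls of gnb1, rgs3, gprc5b, adgrb3, gpr85 and adgrb1 held in each of the 10 alternatives run, DESeq2 among them, with log2 ratios between 0.97 and 2.95. The calls of adgrl2, cnr1, gng4 and gng7 did not hold in all.

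**Figure D2:**
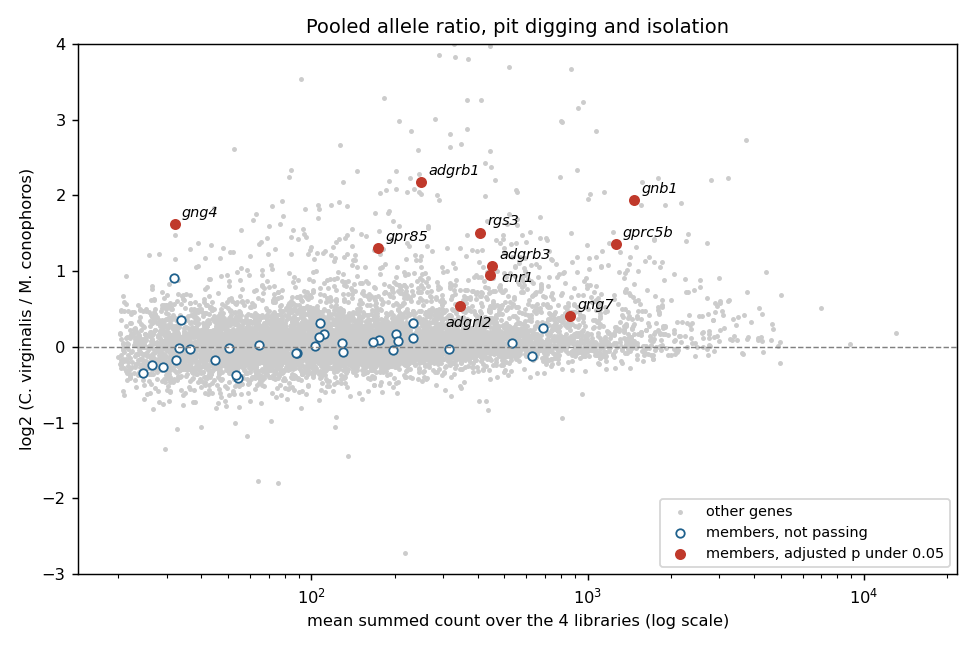
Pooled log2 ratio of the C. virginalis over the M. conophoros allele in pit digging and isolation (y axis) against the mean summed count over the 4 libraries (x axis, log scale). Grey points are other genes, open circles members that did not pass and red points the 10 members with an adjusted p under 0.05. All 10 lie above 0, from 0.41 for gng7 to 2.18 for adgrb1, and 5 genes lie outside the y axis.

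The share differed between replicates of a paradigm beyond counting error in few members. These were adgrb1, cnr1, gnb1 and gprc5b, each among the 10 members called over pit digging and isolation. How often that held for all genes called was not counted. Exact (Clopper-Pearson) 95% intervals, which take in no other error than that of counting, failed to overlap between the pit digging libraries for 2 of 48 members listed in both, adgrb1 and gnb1. That was the case for 4.83% of the 9482 genes listed in both libraries. Between the isolated libraries it was the case for 3 of 47 members, cnr1, gnb1 and gprc5b, beside 3.65% of 9239 genes.

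In the castle building sample, the orphan receptors gpr85 and gprc5b leaned to the C. virginalis copy, with 81.9% (exact 95% interval 75.7 to 87.1) and 76.5% (72.6 to 80.03). They were the only 2 of 34 members tested that passed (log2 ratio 2.18 ± 0.30 SE, adjusted p = 0.0159, and 1.70 ± 0.26, adjusted p = 0.0237, edgeR), which is 5.88% beside 1.71% of all 6844 genes in either direction, 1.59% in this direction and 0.117% in the other. The median log2 ratio was 0.00 over the members and 0.04 over all genes. The beta subunit gnb1 had 70.03% (67.01 to 72.9; log2 ratio 1.22 ± 0.25, adjusted p = 0.0805) and passed only without pit digging replicate 1 (adjusted p = 0.0376) or with the castle building libraries taken as 2 samples. The call of gpr85 did not hold without isolated replicate 1 or without isolated replicate 2 (adjusted p up to 0.0975). The single castle building sample is assumed to vary like the other groups.

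For the other members called over pit digging and isolation and listed here, the castle building values lay closer to equality. These members were chosen by unequal alleles in the pit digging and isolated libraries. That choice favours values closer to equality in a sample that took no part in it. How many of all genes called there did the same was not counted. The share was 55.1% (51.1 to 59.1) for adgrb1, 53.02% (50.9 to 55.1) for adgrb3, 50% (44.03 to 55.97) for adgrl2, 50.2% (44.2 to 56.2) for cnr1 and 48.03% (44.2 to 51.8) for gng7. For rgs3 it was 44.2% (38.9 to 49.5), on the other side of equality. These intervals take in counting error only. The test of rgs3 in castle building did not pass, with log2 ratios of -0.37 to -0.33 over 12 alternatives. Among the members with the next smallest p, the share was 60.7% for gpr37, 59.8% for grk4, 36.8% for adcy5, 41.0% for rgs7, 54.4% for adgrb2 and 45.6% for gng3, none of which passed.

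Whether the allelic share itself depended on behaviour was tested as an interaction. Between pit digging and isolation no member passed: 0 of 42, beside 0.0% of 8254 genes (edgeR; 1 member and 448 genes had an unadjusted p under 0.05, and DESeq2 called 0 members). The smallest p was that of adgrb1, whose share was 88.2% ± 10.7 over pit digging and 73.5% ± 3.27 over isolated libraries (SD, n = 2 per group; log2 difference 1.44 ± 0.53 SE, adjusted p = 0.833). Its pit digging values lay above its isolated ones, and the gap between the pit digging values was as wide as that between the group means. In the same direction lay gpr108 (52.1% ± 1.07 against 46.8% ± 1.89), gng4 (78.9% ± 9.16 against 70.4% ± 5.32), gpr180 (46.6% ± 3.98 against 41.3% ± 3.48) and gpr146 (49.9% ± 2.53 against 38.4% ± 9.32). The share was lower in pit digging for gpr85 (67.9% ± 8.09 against 75.1% ± 1.29), rgs20 (44.7% ± 2.10 against 54.2% ± 7.66), adcy3 (43.99% ± 5.46 against 53.4% ± 9.28), gpr158 (47.1% ± 3.73 against 53.8% ± 7.60) and gpr27 (44.6% ± 4.45 against 51.6% ± 4.14). None of these 10 had an adjusted p under 0.833.

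Against castle building, no member passed in either contrast, and rgs3 had the smallest p in both. Its share was 71.8% ± 4.88 over pit digging and 75.8% ± 3.22 over isolated libraries (SD, n = 2 per group), and 44.2% in castle building. The log2 difference was 1.72 ± 0.28 for pit digging minus castle building (SE, adjusted p = 0.0832) and -1.97 ± 0.28 for castle building minus isolation (adjusted p = 0.0522, edgeR). The latter passed in 5 of 12 alternatives, with log2 differences from -2.16 to -1.81 over the 12. It passed with TMM scaling between alleles, with the near-copy castle building libraries as 2 samples, and without a pit digging library. Pit digging is no part of this contrast. It did not pass with DESeq2, without a filter on the mean total or at a mean total of 100. Nor did it pass without any single isolated or castle building library. Per allele, the C. virginalis copy of rgs3 stood at 159, 96.4, 135 and 155 TMM-normalised CPM in the pit digging and isolated libraries and at 75.7 in castle building. The M. conophoros copy stood at 52.5, 44.7, 37.9 and 55.8, and at 95.6 in castle building. The castle building sample therefore had the lowest C. virginalis and the highest M. conophoros level of the 5 samples.

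For pit digging minus castle building, 0 of 34 members passed, beside 0.175% of 6844 genes, 0.0584% of them higher and 0.117% lower in pit digging (edgeR; 7 members and 627 genes at an unadjusted p under 0.05, 0 members with DESeq2). The next members by p were adgrb1 (log2 difference 2.61 ± 0.58 SE, adjusted p = 0.171), adgrb3 (0.94 ± 0.22, 0.192), rgs7 (1.40 ± 0.40, 0.297) and gpr85 (-1.15 ± 0.38, 0.38). The log2 difference of adgrb1 ran from 1.76 to 4.15 over 12 alternatives. The value of 4.15 was that without pit digging replicate 2. It rests on 1 pit digging library, in which the M. conophoros allele held 8 of 186 counts. Differences for gng7 (0.53), gnb1 (0.73), adgrl2 (0.67), cnr1 (1.01) and gpr37 (-0.42) had adjusted p of 0.467 to 0.756.

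For castle building minus isolation, which shares the castle building sample with that contrast, 0 of 34 members passed beside 0.263% of all genes, 0.161% with a higher and 0.102% with a lower C. virginalis share in castle building (edgeR; 5 members and 582 genes at an unadjusted p under 0.05, 0 members with DESeq2). Below rgs3 came adgrb3 (-0.85 ± 0.23, adjusted p = 0.296) and rgs7 (-1.46 ± 0.50, 0.463). Differences for gng7 (-0.51), gpr37 (0.68), gnb1 (-0.70), adgrb1 (-1.16), gnal (-0.76), gpr158 (-0.69) and gpr85 (0.59) had adjusted p of 0.521 to 0.767. The median log2 difference was -0.26 over the members and -0.02 over all genes.

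**Figure D3:**
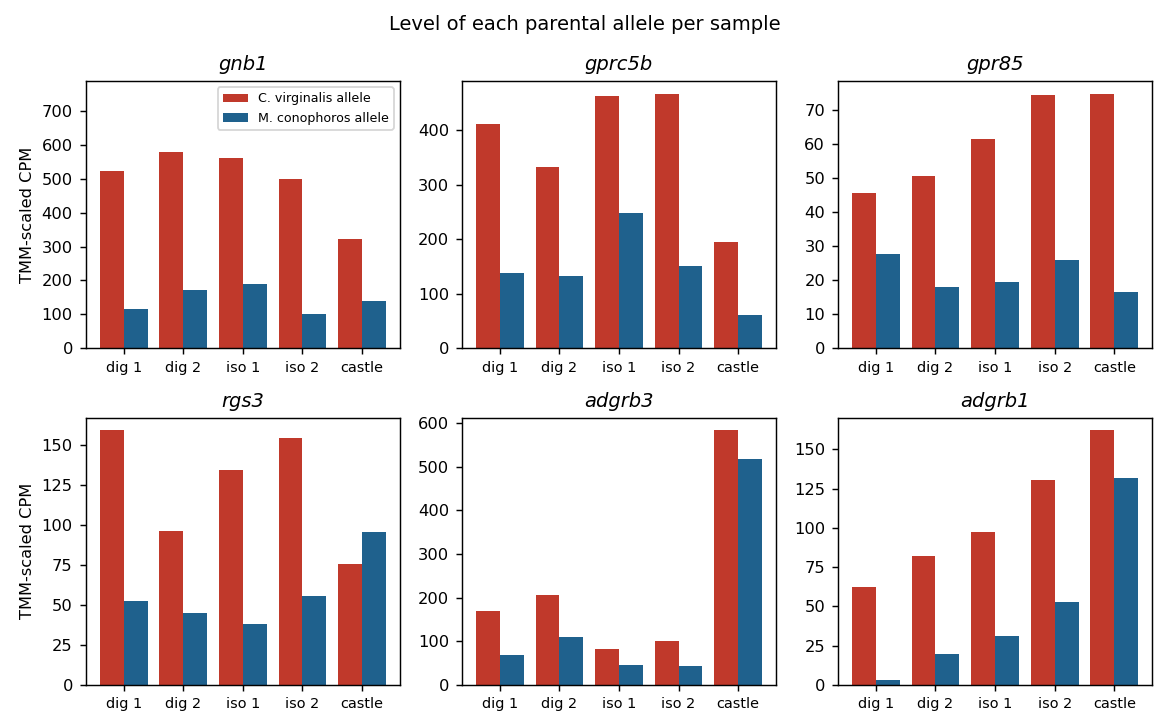
Level of the C. virginalis (red) and M. conophoros (blue) allele in TMM-normalised CPM (y axis) in each pit digging (dig), isolated (iso) and castle building sample (x axis) for 6 members. Each bar is 1 sample. In gnb1, gprc5b, gpr85, adgrb3 and adgrb1 the red bar is the taller in all 5 samples, and in rgs3 in 4 of 5. In adgrb3 and adgrb1 both bars are tallest in castle building.

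Summed over both alleles, no member passed between pit digging and isolation: 0 of 42, beside 0.0% of 8254 genes (edgeR; 5 members and 827 genes at an unadjusted p under 0.05). DESeq2 called 1 member, adcy3. This cyclase, which serves olfactory and ciliary signalling in mammals, had 45.3 and 76.1 CPM in pit digging and 15.6 and 13.6 in isolation (log2 difference 2.05 ± 0.40 SE, adjusted p = 0.252, edgeR; CPM of this paragraph are scaled over these 4 libraries). Both pit digging values were above both isolated ones. The beta subunit gnb4 went the other way, with 59.9 and 52.1 against 122.0 and 122.2 CPM (-1.12 ± 0.23, adjusted p = 0.26), as did the orphan gpr27 with 21.7 and 20.5 against 65.1 and 49.5 (-1.44 ± 0.32, adjusted p = 0.288). The groups did not overlap in either gene. The adrenergic receptor adrb1 had 148 and 133 CPM against 28.2 and 70.4 (1.505 ± 0.48, adjusted p = 0.431), and adgrb3 had 220.2 and 295 against 119 and 134 (1.03 ± 0.25, adjusted p = 0.321). Both were higher in both pit digging libraries. The genes of this paragraph were chosen by small p, which favours groups that do not overlap. How many of all genes had such groups was not counted. Log2 differences for adgrb1 (-0.89), rgs7 (0.78), adra2a (0.72), gng3 (-0.37) and gprc5b (-0.38) had adjusted p of 0.503 to 0.595.

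The adhesion receptor adgrb3 was higher in castle building than in both other paradigms, and rgs7 higher than in isolation. The summed level of adgrb3 was 238 and 314 TMM-normalised CPM in pit digging, 129 and 144 in isolation and 1100.4 in castle building (CPM scaled over the 5 samples). That is 3.99-fold above pit digging (log2 difference -2.00 ± 0.27 SE for pit digging minus castle building, adjusted p = 0.0415) and 8.06-fold above isolation (3.01 ± 0.27, adjusted p = 0.0359, edgeR). On each allele the castle building level lay above the other 4 libraries: the C. virginalis copy stood at 583 CPM in castle building against 82.6 to 205 elsewhere, and the M. conophoros copy at 517 against 43.6 to 109. The regulator rgs7 had 20.3 and 14.9 CPM in pit digging, 9.47 and 11.3 in isolation and 59.2 in castle building. It was higher in castle building than in isolation (2.51 ± 0.40, adjusted p = 0.0448), and its difference from pit digging did not pass (-1.74 ± 0.39, adjusted p = 0.076). The isolated libraries held 18 and 23 counts of rgs7. Of these, 6 and 8 were M. conophoros counts, near the 6 needed for a listing.

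No other member passed in the main edgeR fit. The contrast with pit digging called 1 of 34 members (2.94%), beside 4.69% of 6844 genes in either direction, 3.27% higher and 1.42% lower in pit digging. The contrast with isolation called 2 of 34 (5.88%), beside 6.72% in either direction, 2.44% higher and 4.28% lower in castle building. Without any single pit digging or isolated library 0 members and 0 genes passed in either contrast, and the adjusted p rose to at most 0.13 and 0.114 for adgrb3 and 0.145 for rgs7. With C. virginalis counts alone, adgrb3 against pit digging and rgs7 against isolation did not pass. DESeq2 called 4 and 5 members. The median log2 difference for castle building minus isolation was 0.22 over the members and -0.05 over all genes, and for pit digging minus castle building -0.39 and 0.05.

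Members with the next smallest p were given as values. Castle building had 336 CPM of gpr37, 220.4 of s1pr1, 294 of adgrb1, 138 of gnb4, 212 of adrb1 and 19.4 of gpr78. Pit digging had 98.7 ± 35.1, 78.7 ± 3.89, 83.4 ± 25.9, 60.1 ± 6.63, 150.3 ± 13.1 and 6.002 ± 2.05 of these (SD, n = 2), and isolation 96.8 ± 4.42, 106 ± 26.5, 156 ± 39.1, 132 ± 0.233, 53.2 ± 32.1 and 8.62 ± 0.28 (SD, n = 2). In each of these 6 the castle building level was above all 4 other libraries. Castle building was below all 4 in gpr45 (16.5 CPM against 42.1 to 58.03), chrm3 (125 against 238 to 254), gprc5b (256 against 464 to 712), gng3 (164 against 244 to 345) and adgra1 (24.8 against 37.5 to 63.7). None of these 11 passed in the main edgeR fit, with adjusted p from 0.0593 for gprc5b against isolation. DESeq2 called gpr37 in both contrasts, adgrb1 and s1pr1 against pit digging, and adrb1 and gprc5b against isolation. In edgeR, gpr37 also passed in both contrasts at a mean total of 100 and with C. virginalis counts alone. These 11 were chosen by small p, which favours castle building levels outside those of the other libraries. How many of all genes had such levels was not counted.

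**Figure D4:**
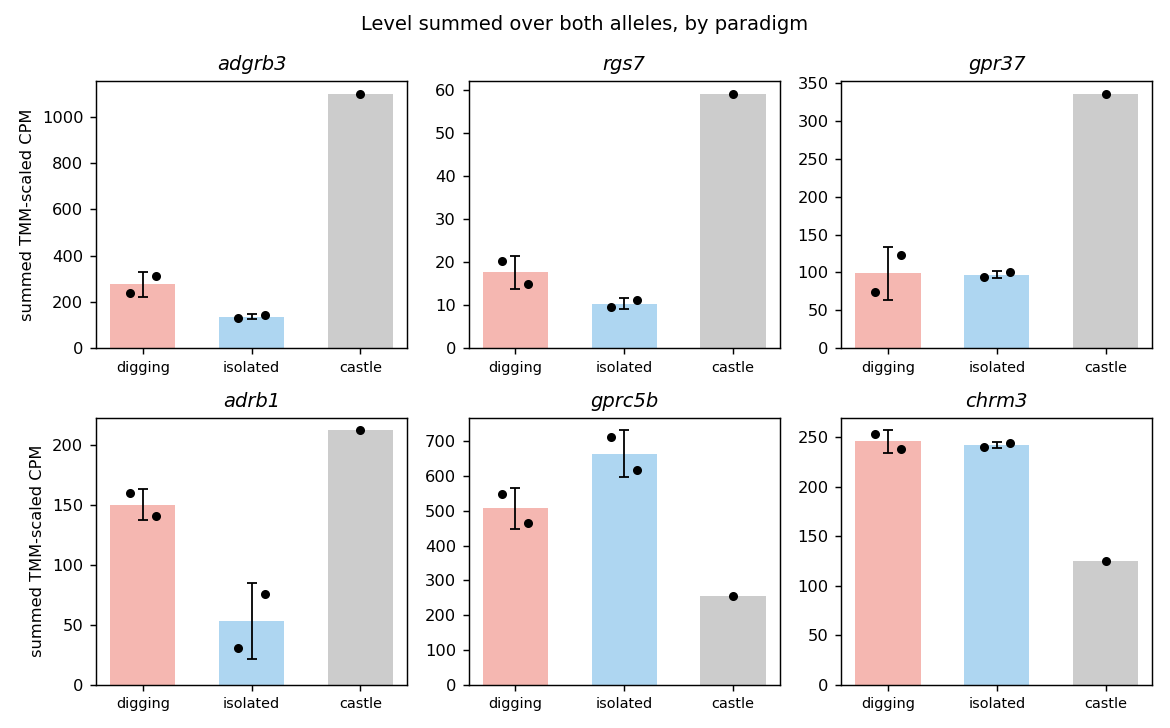
Level summed over both alleles in TMM-normalised CPM (y axis) by paradigm (x axis) for 6 members. Bars are means, points single samples and error bars the SD of 2 libraries, and castle building is 1 sample without an error bar. Castle building is highest in adgrb3, rgs7, gpr37 and adrb1 and lowest in gprc5b and chrm3.

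The summed levels of some cell type markers also lay outside those of the other libraries in castle building. Of 7 oligodendrocyte markers looked for, 4 were listed in a table and 3 tested with castle building (mbp, mpz and myrf). The summed level of these 3 was 1100 CPM in castle building, 6779 and 6856 in pit digging and 5826 and 5618 in isolation. For 2 listed microglia and leukocyte markers of 7 (csf1r and cd74) it was 84.5, against 152 to 265 elsewhere. For the 6 neuronal markers tested of 8 it was 2980, within the 2379 to 3428 of the other libraries. For the 2 endothelial and meningeal markers tested of 7, with 5 listed, it was 72.3, just below the 74.9 to 109 elsewhere. For the 4 radial glia and astroglia markers tested of 8, with 5 listed, it was 5418, above the 2656 to 4855 elsewhere. Of the markers tested, 2 neuronal and 1 oligodendrocyte gene passed as lower in castle building in either contrast. Over all genes, 3.27% passed as lower there than in pit digging and 4.28% as lower than in isolation. No astroglia, microglia or endothelial marker passed. The part of cell composition in the castle building differences was not tested.

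Genes that act next to the members were counted from a list of 58, of which 35 were listed in a table and 28 tested over pit digging and isolation. There, 3 were higher on the C. virginalis allele, 0 on the M. conophoros allele and 25 did not pass. The 3 are 10.7% of the 28, near the 9.05% of all genes that passed in this direction. Beta-arrestin arrb1, which binds receptors marked by receptor kinases, had 79.8 and 64.6% in pit digging and 73.1 and 71.6% in isolation, with a mean of 72.3% ± 6.21 (SD, n = 4; log2 ratio 1.42 ± 0.17 SE, adjusted p = 0.00187, edgeR), and 55.4% in castle building. Without isolated replicate 2 it did not pass (adjusted p = 0.0515). The Gq effectors plcb1 (58.2% ± 3.58; log2 ratio 0.48 ± 0.11, adjusted p = 0.0307) and plcb4 (59.6% ± 6.83; 0.56 ± 0.13, adjusted p = 0.0379) also passed. Each did so in 4 of 10 alternatives. The call of plcb1 was lost with DESeq2, with TMM between alleles and without any single library (adjusted p up to 0.489). The call of plcb4 was lost with DESeq2, with TMM between alleles, at a mean total of 100 and without pit digging replicate 1, pit digging replicate 2 or isolated replicate 2 (adjusted p up to 0.229). None of 4 protein kinase A subunits, 8 phosphodiesterases, 2 protein kinase C genes or 2 GIRK channel genes did. No such gene passed in castle building or in the 3 contrasts of the allelic share. The smallest p in these contrasts were those of prkcb, prkar1a, arrb1 and pde10a.

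Summed over both alleles, none of the 28 passed between pit digging and isolation (edgeR), where pde10a and prkcb had the smallest p. Castle building had less of the IP3 receptor itpr1 (37.4 CPM) than pit digging (229 ± 15.8, SD, n = 2; log2 difference 2.61 ± 0.31 SE, adjusted p = 0.0408) and isolation (241 ± 28.3; -2.69 ± 0.31, adjusted p = 0.0359). The same held for the GIRK channel subunit kcnj3 (14.1 CPM, against 93.2 ± 2.32 and 125 ± 13.9). The phosphodiesterases pde3a, pde4d and pde10a, which break down cyclic nucleotides, were higher in castle building than in isolation (309.7, 509 and 129.6 CPM against 60.6 ± 0.872, 104 ± 16.03 and 35.3 ± 1.43), and were not called against pit digging. With C. virginalis counts alone pde10a did not pass. The calls were 2 of 25 genes (8%) against pit digging and 5 of 25 (20%) against isolation, beside 4.69 and 6.72% of all genes in either direction. As for the members, these calls came from a fit in which 0 genes passed once a pit digging or isolated library was left out.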

How the data were processed

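Per the labels' protocols, RNA of whole brains was extracted with Trizol for Illumina sequencing. The submitters' processing notes name STAR 2.4. Not given in the sources used here are the build, annotation, informative sites, allele counter and strand. The deposited values are whole-number counts per gene and allele, with no normalization, and their log2 ratio, per the file headers. The deposited log2 ratio equalled that of the counts, and the table of the whole series held the same counts as the library tables. Symbols are those of the files, and no position or sequence is printed. Fish genes have copies that can share reads, which the counting could split.

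Members and lists were chosen with earlier results of these data known. Genes needed a mean total of 20 and a listing in all 4 pit digging and isolated tables (8254 genes) or all 6 tables (6844 genes). The fits used edgeR 4.0.16 (R 4.3.3). The model for allelic counts had 1 intercept for each animal and, for each paradigm, 1 coefficient of allele. For sums, paradigm was the only factor and TMM the normalization. Both were run on all genes with Benjamini-Hochberg adjustment at 0.05. The biological coefficient of variation was 10.8% for allelic counts and 34.6% for sums over the 4 libraries. The SE of a log2 value is its size over the square root of F. DESeq2 1.42.0 and the alternatives of the closing section were also run, and the procedure was tested on simulated data. Named members passed a test, were among the 10 with the smallest p of a comparison in which fewer passed, or were among the 4 with most counts in their class. Outside these conditions, adcy8 and adgrl4 were also named, as the remaining members of their classes. Replicate numbers were not used to pair samples, because the labels name no shared brood, batch or day. The correlations of the closing section cannot exclude one. Castle building was fixed as 1 sample because earlier work on these data had found its libraries alike, and this held here.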

Additional observations from a re-analysis of the deposited data

How the results depend on the processing

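The number of members called was the same or within 1.5 times for the pooled allelic test under each alternative run (7 to 11, against 10). With the replicate number as a block it was 11 for the pooled allelic test and 0 for both the share and the sum between pit digging and isolation. The correlation of same-numbered deviations was -0.02 for the allelic ratio and -0.09 for sums, so the numbers were not taken to pair samples. Leaving out a library gave 1 to 3 members in castle building (2 in the report), 0 to 1 for the share between pit digging and castle building and between castle building and isolation (0), 0 to 1 for sums between pit digging and castle building (1) and 0 to 2 between castle building and isolation (2). Taking the castle building libraries as 2 samples, which are near-copies, gave 4 members in castle building, 3 and 1 for the shares and 17 and 14 for the sums; adding a replicate block to that gave 4, 3, 1, 13 and 14. DESeq2 gave 1 member for sums between pit digging and isolation, 4 between pit digging and castle building and 5 between castle building and isolation. TMM between alleles gave 1 for the share between castle building and isolation, and a mean total of 100 gave 2 for sums between pit digging and castle building. Over all genes, the pooled count of 802 fell to 420 with DESeq2 and to 375 to 658 without a library. The castle building count of 117 was 60 with DESeq2, 46 to 153 without a library and 619 with 2 castle building samples. Share counts of 12 and 18 were 28 and 28 with TMM between alleles, 8 and 8 at a mean total of 100, 6 to 20 and 3 to 30 without a library and 272 and 209 with 2 castle building samples. For shares between pit digging and isolation the count of 0 was 5 with DESeq2 and 5 with the block. Sum counts of 0, 321 and 460 were 156, 854 and 933 with DESeq2, and the latter were 2648 and 2734 with 2 castle building samples. The causes were not tested. Of the single genes' values, 916 kept side and direction, 62 came to pass, 72 no longer passed and none reversed. Of the 61 members, 19 had too few listings or counts for the 4-library test.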

Other observations

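Of 81 symbols that match the pattern, 20 were no members because they were listed in no pit digging table, no isolated table or neither. Dopamine receptors fell wholly in this group. The genes named here were chosen after their values were seen. The inhibitory receptor drd2 was listed in both isolated tables, with 68 and 43 counts, and in no other. In both pit digging tables, and in no other, drd3 was listed with 17 and 15 counts. The receptor drd5 was listed in pit digging replicate 1 alone, with 16 counts. These totals of drd3 and drd5 were near 12, the lowest listed in a pit digging or isolated table. How many of all genes had such listings was not counted. A gene is listed only from 6 counts on each allele, so a missing entry is not a count of 0, and these listings were not tested. The G alpha subunit gnas, of the stimulatory family, was listed in castle building alone, with 58 counts and a C. virginalis share of 43.1%, and gpr63 had 132 counts there and 16 and 18 in pit digging.

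The symbol gnb2l1, which the pattern takes although it encodes the ribosomal scaffold RACK1 and no G beta subunit, was listed in pit digging replicate 1 alone. Its C. virginalis copy had 1198 counts and its M. conophoros copy 11, a share of 99.1%.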
